A study of Mus musculus with 4 samples.

Results

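The genes described here carry glucose from the blood into cardiac cells and on to lactate, glycogen or the mitochondrial matrix. They are 38 genes of 32285 in the deposited matrices, taken by gene symbol, and they cover glucose transporters, the enzymes of glycolysis, lactate dehydrogenases, entry of pyruvate into mitochondria and glycogen turnover. RNA was counted in single nuclei of hearts from C57BL/6 mice 6 months old (10x Genomics 3′ v3 libraries). Each genotype gave 1 library made from 3 pooled hearts: wild type (WT), heterozygous for an Rbm20 mutation (Rbm20_het), homozygous for it (Rbm20_homo), and homozygous with a correction by gene editing (Rbm20_homo_corrected, the corrected library below). The labels used here name neither the allele nor the editing agent and its delivery. Rbm20 encodes a regulator of splicing in heart muscle, and the question of the series was how its mutation and the correction of it alter the transcriptome of cardiac nuclei. With 1 pool per genotype, differences between hearts, between pools and between genotypes cannot be told apart, and every comparison below is between 2 libraries, with no replicate error and no p-value.

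Glucose enters cardiomyocytes mainly through the insulin-responsive transporter GLUT4 and, at a basal rate, through GLUT1. Hexokinase traps it as glucose 6-phosphate, which is either stored as glycogen or burned through glycolysis, where phosphofructokinase is the committed step and fructose 2,6-bisphosphate its strongest activator. Pyruvate is exchanged with lactate or passed by the mitochondrial pyruvate carrier to the pyruvate dehydrogenase complex, which kinases of the Pdk family switch off. Many of these steps have a form typical of adult striated muscle and another form shared by most tissues, and the adult heart draws most of its energy from fatty acids.

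The 4 libraries held 37180791 to 52370368 UMIs (counted RNA molecules). Libraries shared 26 to 55 cell barcodes per pair, at most 0.479% of the smaller library. The added features ABE_C and ABE_N were seen in the corrected library only, with 3550 and 4992 UMIs. Ventricular cardiomyocyte-like nuclei numbered 2893 in WT, while Rbm20_het held 2372, Rbm20_homo 2917 and the corrected library 3041, and all 14 cardiomyocyte markers were detected in each. Their nuclei lay in 2 clusters. Cluster 0 held 2842, 2240, 57 and 2770 nuclei of WT, Rbm20_het, Rbm20_homo and the corrected library, and cluster 3 held 51, 132, 2860 and 271, so the comparison of Rbm20_homo with the others is nearly a comparison of these clusters. Rbm20 itself stood at 5327, 5409, 5030 and 5570 CPM in the same order. CPM means UMIs scaled to a total of 1000000 after mitochondrial genes and Malat1, a nuclear noncoding RNA, were left out. Malat1 made up 24.2% of the non-mitochondrial UMIs of these nuclei in Rbm20_homo, against 14.5%, 15.4% and 15.5% in WT, Rbm20_het and the corrected library. The median share of mitochondrial UMIs was lowest in Rbm20_homo too, at 0.089% against 0.165%, 0.204% and 0.176%. The 10 fibroblast markers summed to 173, 234, 371 and 265 CPM in cardiomyocyte-like nuclei, with 1 of 10 at 0 in WT. Summed markers of endothelium ranged from 128 to 156 CPM, of pericytes from 193 (Rbm20_homo) to 438 (WT) and of macrophages from 46.2 to 70.1. Abcc9 alone gave 387, 202, 107 and 311 CPM of the pericyte sums, and none of the other pericyte markers was highest in WT. The marker list that differed most was that of atrial cardiomyocytes, whose 6 genes summed to 18.2, 39.9, 1189 and 47.1 CPM. Nppa, which encodes atrial natriuretic peptide and is also known to be induced in stressed ventricle, made up 11.6, 33.8, 1175 and 38.2 CPM of these. Of the other atrial markers Sln and Bmp10 were at 0 in all 4 libraries, Myl7 had 0 to 6 UMIs, Dkk3 0 to 23 and Myl4 70 to 176. The 6 adipocyte markers summed to 2009, 1705, 1118 and 1939 CPM, of which Ghr (growth hormone receptor) gave 2008, 1703, 1117 and 1939, while Adipoq and Cidec had 0 or 1 UMI per library and Cfd 0 in all. The part of these markers in the results below was not tested.

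In cardiomyocyte-like nuclei the 38 genes did not move as a block between Rbm20_homo and WT. A gene was called higher or lower where the whole 95% interval of its CPM ratio lay past 1.5-fold, and it was tested where the 2 libraries held at least 50 UMIs of it. Brackets below hold such intervals, which cover counting error only. Of 37 tested genes 4 were higher and 5 lower, while 9.05% and 7.9% of the 13031 genes tested were called in those directions, so these counts give no result about the pathway as a set. Pdk3 was not tested. The median log2 ratio was 0.05, beside -0.02 for all genes. With Malat1 kept in the total the split was 3 higher and 7 lower, beside 6.65% and 11.5% of all genes. The median of all genes then moved to -0.19. Slc2a1, Pfkp, Gbe1 and Phka1 were higher, and Hk2, Pfkfb1, Pfkfb3, Ldhd and Pygm were lower.

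**Figure D1:**
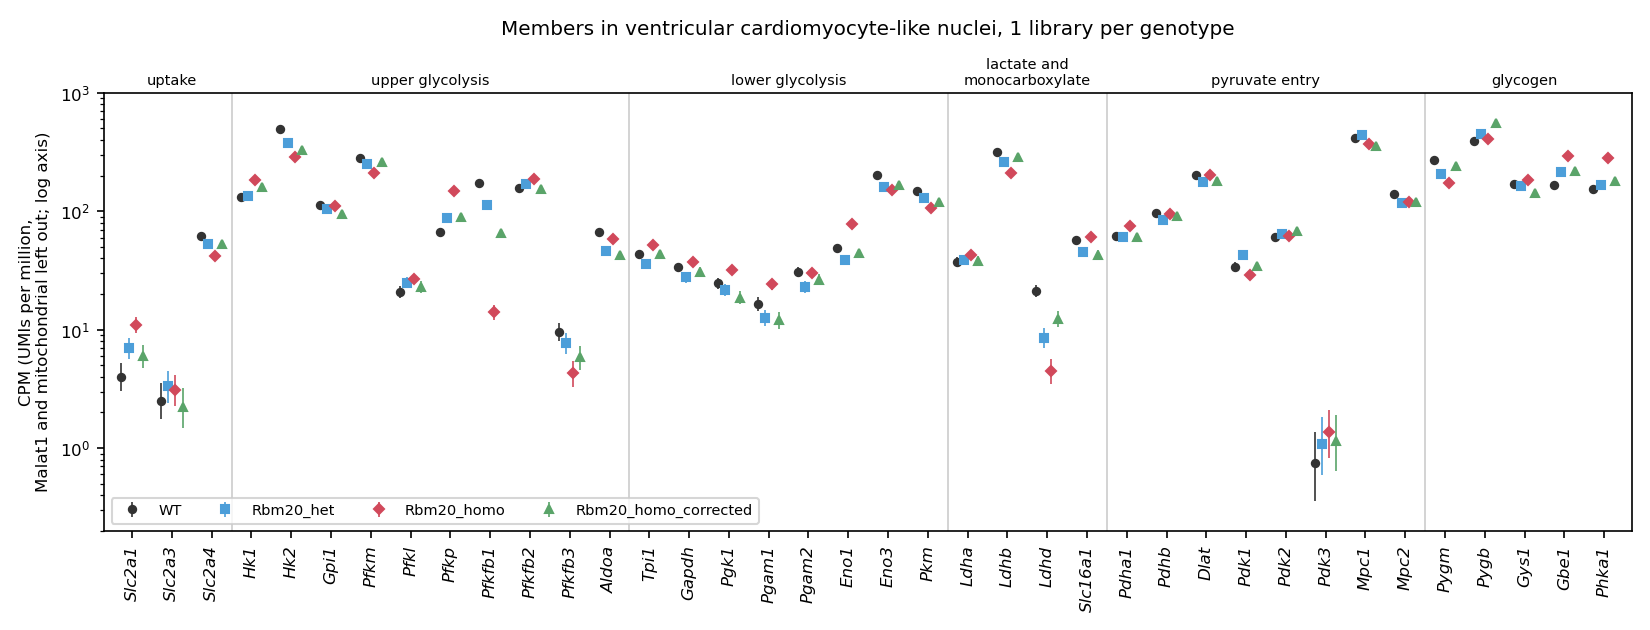
CPM (UMIs scaled to a total of 1000000, log axis) of the 38 genes in ventricular cardiomyocyte-like nuclei, by step of the pathway. Each point is 1 library and each bar its 95% interval of counting error. Pfkfb1 falls from 174 CPM in WT to 14.0 in Rbm20_homo, while Gapdh stays between 27.7 and 37.4 in the 4 libraries.

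**Figure D2:**
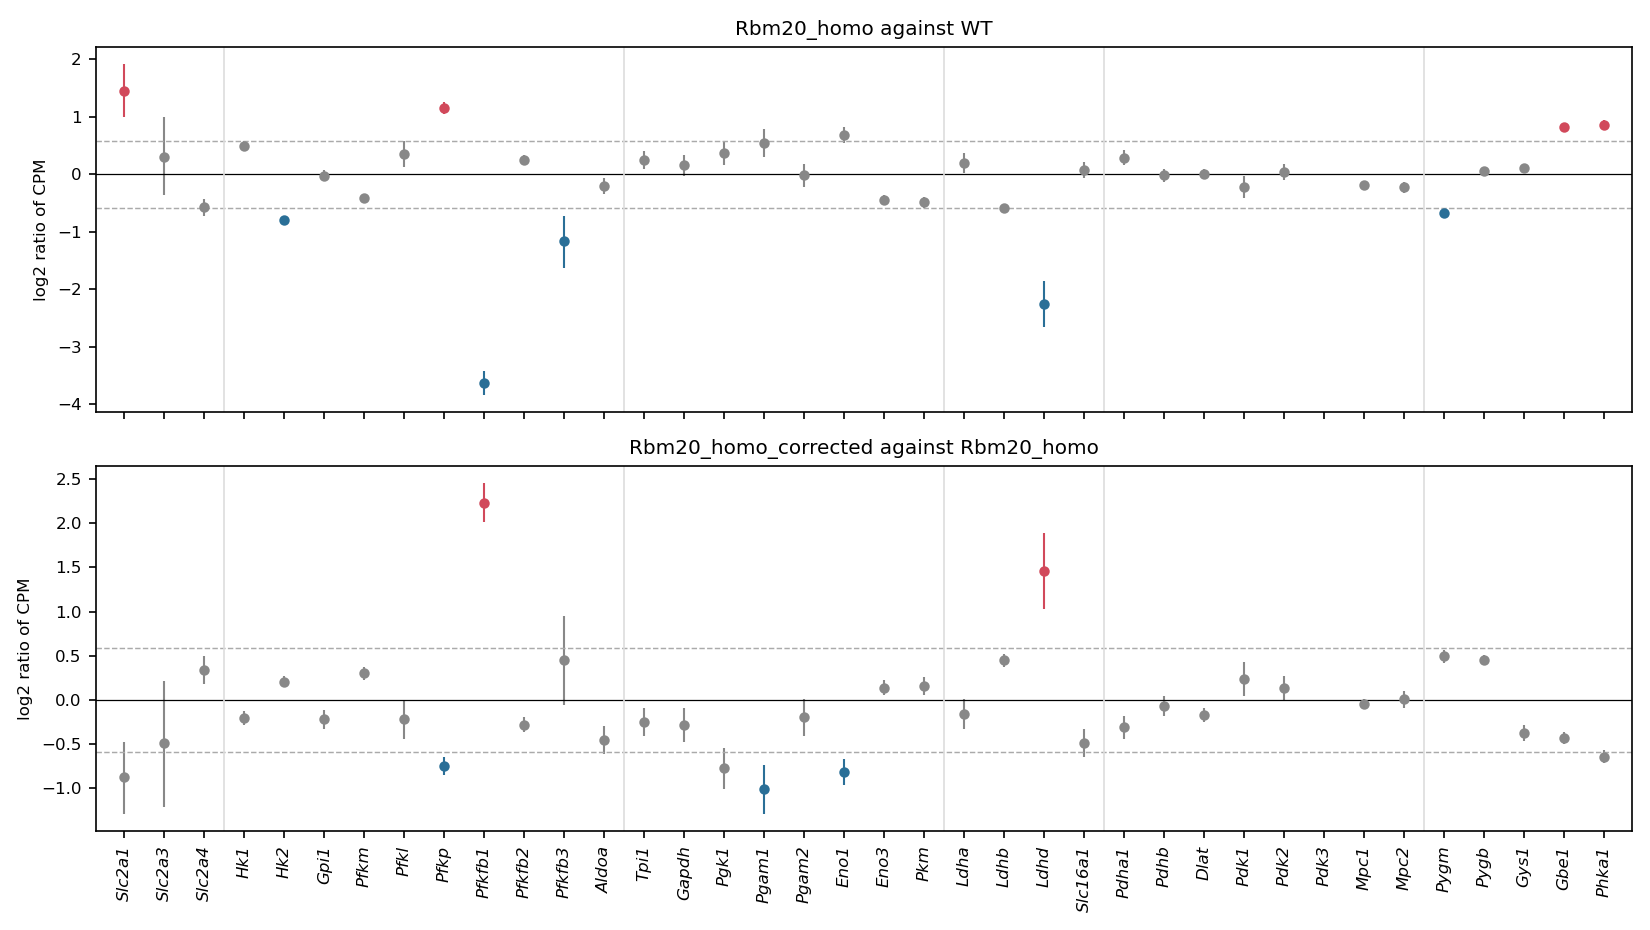
Log2 ratio of CPM in cardiomyocyte-like nuclei for Rbm20_homo against WT (top) and the corrected library against Rbm20_homo (bottom), with 95% intervals of counting error. Red and blue points have an interval wholly past 1.5-fold (dashed lines) and grey points do not (Pdk3, not tested, has no point). Both panels use the Rbm20_homo library, so a mirrored pattern is in part built in.

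The sequences upstream of 6 of the called genes are shown, 1 or more for each step with a called gene, since the called genes differed in direction. Each line gives the 250 bases before the RefSeq start (build GRCm38.p6), read 5′ to 3′ on the strand of the gene, and Pfkfb1 has 4 such starts, of which the one nearest to its annotated start is shown. Capitals mark ACGTG, the core of hypoxia response elements, on either strand. The palindrome CACGTG holds ACGTG on both strands and is also marked.
Slc2a1 at chr4:119108495-119108744, plus strand: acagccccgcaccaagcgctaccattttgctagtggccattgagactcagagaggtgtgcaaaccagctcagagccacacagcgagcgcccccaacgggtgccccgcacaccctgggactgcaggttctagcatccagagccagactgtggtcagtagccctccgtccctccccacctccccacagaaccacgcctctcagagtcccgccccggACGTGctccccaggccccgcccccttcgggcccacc
Hk2 at chr6:82774455-82774704, minus strand: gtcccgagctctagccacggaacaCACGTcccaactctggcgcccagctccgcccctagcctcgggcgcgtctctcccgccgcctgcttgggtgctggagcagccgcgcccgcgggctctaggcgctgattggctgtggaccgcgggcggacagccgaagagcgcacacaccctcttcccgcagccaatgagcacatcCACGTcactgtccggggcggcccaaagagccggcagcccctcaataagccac
Pfkp at chr13:6648772-6649021, minus strand: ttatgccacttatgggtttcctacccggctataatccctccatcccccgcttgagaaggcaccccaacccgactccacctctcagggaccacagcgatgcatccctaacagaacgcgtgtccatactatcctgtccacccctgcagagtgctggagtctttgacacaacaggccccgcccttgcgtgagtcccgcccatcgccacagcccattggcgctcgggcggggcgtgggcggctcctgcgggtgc
Pfkfb1 at chrX:150587993-150588242, plus strand: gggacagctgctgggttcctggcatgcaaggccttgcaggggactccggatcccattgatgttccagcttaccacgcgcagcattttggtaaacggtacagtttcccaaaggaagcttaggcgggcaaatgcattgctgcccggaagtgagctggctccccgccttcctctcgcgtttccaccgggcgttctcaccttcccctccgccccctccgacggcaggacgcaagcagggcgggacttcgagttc
Ldhd at chr8:111630337-111630586, minus strand: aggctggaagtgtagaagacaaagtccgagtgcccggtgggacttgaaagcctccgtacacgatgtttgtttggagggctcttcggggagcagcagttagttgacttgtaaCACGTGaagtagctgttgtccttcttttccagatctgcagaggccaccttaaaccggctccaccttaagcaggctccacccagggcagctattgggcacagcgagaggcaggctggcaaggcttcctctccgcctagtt
Pygm at chr19:6384158-6384407, plus strand: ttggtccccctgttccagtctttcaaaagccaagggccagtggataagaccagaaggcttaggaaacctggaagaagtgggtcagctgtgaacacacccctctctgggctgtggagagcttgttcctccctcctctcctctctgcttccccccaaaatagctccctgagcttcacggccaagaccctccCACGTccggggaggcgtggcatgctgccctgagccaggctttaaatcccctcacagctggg
RefSeq windows were found for 36 of the 38 genes. ACGTG lay in 14 of them, or 38.9%, against 16.7% of 32536 different windows of this length. CACGTG lay in 5 (13.9%, against 6.04%) and AAGGTCA, a motif of estrogen-related receptors, in 1 (2.78%, against 4.09%). A loose form of the MEF2 motif, with any base allowed at its middle positions, lay in 3 (8.33%, against 3.22%). In these 3 windows no hit had only A and T at those positions, as the MEF2 motif requires. The hits are therefore not read as MEF2 sites. Each pattern was searched on both strands. Among the called genes ACGTG was found in a gene that was higher (Slc2a1) and in others that were lower (Hk2, Pfkfb3, Ldhd and Pygm). Pfkp, Pfkfb1, Gbe1 and Phka1 held none in these windows. ACGTG contains a CG pair, and the CG content of the windows was not matched. The 36 genes gave 1 window each, while the 32536 windows came from every listed start, several per gene in places. These shares are therefore of unlike sets and are descriptions, and no binding was measured.

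Uptake of glucose was represented by 3 transporters. Slc2a4 (GLUT4, the transporter moved to the surface by insulin) stood at 62.4 CPM for WT, 53.3 for Rbm20_het, 41.8 for Rbm20_homo and 52.9 for the corrected library. WT was highest and Rbm20_homo lowest, with the others between, and Rbm20_homo against WT gave a log2 ratio of -0.58 [-0.73 to -0.43], which did not pass the call. Slc2a1 (ENSMUSG00000028645, GLUT1, the basal transporter; chromosome 4, 119108711 to 119137983) had 4.0, 6.96, 11 and 5.98 CPM, with libraries listed in that order here and below. It was 2.74-fold higher in Rbm20_homo than WT [2.0 to 3.80] and rested on 54 UMIs in WT and 162 in Rbm20_homo. The call was lost when nuclei were thinned to 1000 UMIs each (log2 ratio 0.65). In the corrected library it was 1.84-fold lower than in Rbm20_homo [1.39 to 2.44], not past the call. Slc2a3 (GLUT3, a high-affinity transporter) was scarce, at 2.52, 3.33, 3.12 and 2.22 CPM, and its intervals overlapped in all libraries. Its log2 ratio in Rbm20_homo against WT was 0.31 [-0.36 to 0.99] and turned to -0.35 without nuclei that carried 2 or more UMIs of other lineages' defining markers. Per kilobase of gene span, per kilobase of exon and undivided alike, the order in every library was Slc2a4, then Slc2a1, then Slc2a3.

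Of the hexokinases, which phosphorylate glucose on entry, Hk2 fell and Hk1 did not pass the call. Hk2 (ENSMUSG00000000628, the insulin-responsive form of muscle; chromosome 6, 82725025 to 82774454) was counted at 493 CPM in WT, while Rbm20_het held 375, Rbm20_homo 286 and the corrected library 330. It was 1.73-fold lower in Rbm20_homo than WT [1.66 to 1.80]. The corrected library was also below Rbm20_het, and its log2 ratio to WT was -0.58 [-0.64 to -0.53], just short of the call. Hk1, the form found in most tissues, was at 131, 135, 184 and 160 CPM, with a log2 ratio of 0.49 [0.41 to 0.58] in Rbm20_homo against WT. Rbm20_homo thus held the lowest Hk2 and the highest Hk1 of the 4 libraries, although Hk2 stayed above Hk1 in each by every length scale. Gpi1, which turns glucose 6-phosphate into fructose 6-phosphate, was at 112, 104, 111 and 95.3 CPM.

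Of the phosphofructokinases, which commit sugar to glycolysis, the platelet form rose. Pfkp (ENSMUSG00000021196; chromosome 13, 6579768 to 6648777) stood at 67.2 CPM for WT, 87.3 for Rbm20_het, 149.5 for Rbm20_homo and 89.4 for the corrected library. It was 2.22-fold higher in Rbm20_homo than WT [2.06 to 2.40] and 1.67-fold lower in the corrected library than in Rbm20_homo [1.56 to 1.80], both past the call. Rbm20_het and the corrected library lay close together, and both were above WT. The muscle form Pfkm was at 282, 251, 211 and 260 CPM, and Rbm20_homo against WT gave a log2 ratio of -0.42 [-0.48 to -0.35]. The liver form Pfkl was at 20.8, 25, 26.7 and 22.9 CPM. Pfkm led in every library on every length scale. Without nuclei that carried other lineages' markers, the log2 ratio of Pfkp in Rbm20_homo against WT was 1.17, beside 1.15 in all nuclei, but the corrected library against Rbm20_homo lost its call (-0.69). Aldoa, the aldolase of muscle and most other tissues, was at 66.4, 46.3, 57.9 and 42.3 CPM, lower in Rbm20_het and the corrected library than in the other two.

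The largest difference among the 38 genes was in Pfkfb1 (ENSMUSG00000025271; chromosome X, 150588229 to 150643878), an enzyme known from liver and muscle that both makes and breaks fructose 2,6-bisphosphate. It was counted at 174 CPM in WT, while Rbm20_het held 113, Rbm20_homo 14.0 and the corrected library 66.0, and no 2 libraries overlapped in their intervals. It was 12.4-fold lower in Rbm20_homo than WT [10.8 to 14.4]. In the corrected library it was 4.71-fold higher than in Rbm20_homo [4.04 to 5.50] and still 2.63-fold lower than in WT [2.44 to 2.85], the only one of the 38 genes called between the corrected library and WT. Pfkfb2, the form that heart activates by phosphorylation, was at 156, 170, 186 and 153 CPM, with a log2 ratio of 0.25 [0.17 to 0.33] in Rbm20_homo against WT. Pfkfb3 (ENSMUSG00000026773, the inducible form with strong kinase activity; chromosome 2, 11471433 to 11554077) was at 9.56, 7.66, 4.27 and 5.83 CPM. It was 2.24-fold lower in Rbm20_homo than WT [1.65 to 3.08], a call that was lost when no doublets were removed (log2 ratio -0.92), when nuclei were assigned by marker sums (-0.92) and when they were thinned (-1.05). Whether Pfkfb1 or Pfkfb2 was the more abundant in WT depended on the length scale, with 3.12 and 3.90 CPM per kilobase of span but 43.3 and 21.5 per kilobase of exon. In Rbm20_homo Pfkfb2 was the higher at 4.64 against 0.252 CPM per kilobase of span, and undivided as well.

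No gene of lower glycolysis, the part that yields ATP, was called between Rbm20_homo and WT, and 8 of 8 were tested. Of all tested genes 9.05% were called higher and 7.9% lower there, so the lack of a call gives no result about this step. Eno3, the enolase of muscle, stood at 204 CPM for WT, 159 for Rbm20_het, 149.9 for Rbm20_homo and 165 for the corrected library. Eno1, the enolase of most tissues, was at 48.8, 38.7, 78.0 and 44.5 CPM, highest in Rbm20_homo, with a log2 ratio to WT of 0.68 [0.54 to 0.82]. In the corrected library it was 1.75-fold lower than in Rbm20_homo [1.59 to 1.94], which passed the call. Pgam1, the widespread phosphoglycerate mutase, was at 16.5, 12.5, 24.1 and 12 CPM, and was 2.02-fold lower in the corrected library than in Rbm20_homo [1.67 to 2.45], also called, while the muscle form Pgam2 was at 30.6, 22.8, 30.2 and 26.4. Pkm, the last step, which yields pyruvate, was at 149, 130, 106 and 119 CPM. Tpi1 (triose-phosphate isomerase) was at 43.3, 35.5, 51.7 and 43.4, Gapdh at 33.5, 27.7, 37.4 and 30.7, and Pgk1 (phosphoglycerate kinase) at 24.5, 21.8, 31.9 and 18.6. All 8 were below WT in Rbm20_het, with a median log2 ratio of -0.31 beside -0.04 for all genes. None of them was called there, where 1.9% of all genes were called higher and 1.67% lower. Several of these enzymes have processed pseudogenes elsewhere in the genome, and how the authors' counting treated shared reads is not given in the sources used here, so levels of Gapdh, Aldoa, Eno1, Pgk1, Pgam1, Tpi1, Pkm and Ldha are uncertain.

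Lactate and its relatives are handled by 3 dehydrogenases and a transporter. Ldhb, the heart-type subunit, was counted at 315 CPM in WT, while Rbm20_het held 259, Rbm20_homo 209 and the corrected library 285, with a log2 ratio of -0.59 [-0.66 to -0.53] in Rbm20_homo against WT, whose interval reached past the 1.5-fold line. Ldha, the muscle-type subunit, was at 37.3, 38.9, 42.6 and 38.2 CPM. Ldhd (ENSMUSG00000031958, the mitochondrial enzyme for D-lactate; chromosome 8, 111623785 to 111630374) was at 21.3, 8.51, 4.47 and 12.3 CPM. It was 4.76-fold lower in Rbm20_homo than WT [3.63 to 6.32] and 2.50-fold lower in Rbm20_het [2.0 to 3.14], the 1 gene of 37 called in that comparison, where 1.9% of genes were called higher and 1.67% lower. In the corrected library it was 2.74-fold higher than in Rbm20_homo [2.05 to 3.71], without reaching the WT level. Slc16a1 (MCT1, the monocarboxylate transporter) was at 57.5, 45.4, 60.3 and 43.1 CPM.

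Entry of pyruvate into the mitochondrion held no called gene in any of the 4 comparisons. Of all genes, 9.05% were called higher and 7.9% lower in Rbm20_homo against WT, and 1.9% and 1.67% in Rbm20_het against WT. For the corrected library these shares were 4.77% and 6.53% against Rbm20_homo and 2.22% and 2.51% against WT. The lack of a call therefore gives no result about this step. Mpc1 and Mpc2, which together form the pyruvate carrier, were at 417 and 140 CPM in WT and at 367 and 120 in Rbm20_homo. Subunits of pyruvate dehydrogenase differed by less than 1.5-fold: Pdha1 was at 61.8, 60.2, 75.5 and 60.9 CPM, Pdhb at 95.9, 85.0, 94.9 and 90.8, and Dlat at 202, 178, 203 and 181. Pdk1 and Pdk2, which inactivate the complex, were at 33.8, 42.4, 28.9 and 34.2 CPM and at 60.3, 63.7, 62.2 and 68.5. Pdk3 rested on 59 UMIs in all, at 0.742 to 1.35 CPM, so a difference was not detectable at this depth. Pdk4, the kinase induced by fasting and fatty acids and not one of the 38 genes, was at 81.2, 93.1, 121 and 113 CPM, with a log2 ratio of 0.58 [0.47 to 0.69] in Rbm20_homo against WT, not called.

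Of 5 glycogen genes tested, 2 were higher and 1 lower in Rbm20_homo against WT, where 9.05% and 7.9% of all tested genes were called. With so few genes these counts give no result about glycogen turnover as a set. Pygm (ENSMUSG00000032648, muscle glycogen phosphorylase, which releases glucose from glycogen; chromosome 19, 6384399 to 6398459) stood at 273 CPM for WT, 205 for Rbm20_het, 172 for Rbm20_homo and 242 for the corrected library. It was 1.59-fold lower in Rbm20_homo than WT [1.51 to 1.67], near the threshold, and the call was lost with median-of-ratios factors (log2 ratio -0.64), in nuclei with at most 0.1% mitochondrial UMIs (-0.54), without nuclei that carried other lineages' markers (-0.66) and after thinning (-0.66). Pygb, the brain form, was at 394, 447, 409 and 561 CPM, highest in the corrected library. Gbe1 (ENSMUSG00000022707, the branching enzyme of glycogen synthesis; chromosome 16, 70313949 to 70569716) was at 166, 215, 292 and 217 CPM, 1.76-fold higher in Rbm20_homo than WT [1.67 to 1.85]. Phka1 (ENSMUSG00000034055, the muscle regulatory subunit of phosphorylase kinase; chromosome X, 102513975 to 102644246) was at 155, 166, 281 and 180 CPM, 1.82-fold higher [1.73 to 1.92]. Gys1, muscle glycogen synthase, was at 171, 163, 184 and 142 CPM. Gbe1 lost its call with Malat1 kept in the total (0.64), and Phka1 kept its call past 1.5-fold under each of the 10 other scalings, filters, assignments and depths run.

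Isozymes were compared by their share of a family's UMIs, which does not depend on how a library is scaled and is not divided by gene length. Hk2 made up 79.0% of hexokinase UMIs in WT [78.2 to 79.9], while Rbm20_het held 73.5%, Rbm20_homo 60.8% [59.6 to 61.9] and the corrected library 67.3%. Pfkm made up 76.2% of phosphofructokinase UMIs in WT [75.0 to 77.3], while Rbm20_het held 69.1%, Rbm20_homo 54.5% [53.2 to 55.8] and the corrected library 69.8%. Pfkp made up 18.2%, 24.0%, 38.6% and 24.0%. In both families the muscle form had its smallest share in Rbm20_homo and an intermediate share in Rbm20_het and the corrected library.
Eno3 made up 80.7%, 80.5%, 65.8% and 78.8% of the 2 enolases, so here Rbm20_het did not differ from WT beyond counting error. Slc2a4 made up 90.5%, 83.8%, 74.8% and 86.6% of the 3 transporters, and Ldhb 89.4%, 86.9%, 83.0% and 88.2% of Ldha and Ldhb together. Pgam2 made up 64.9%, 64.5%, 55.6% and 68.8% of the 2 mutases. The Pfkfb family, counted here as Pfkfb1, Pfkfb2 and Pfkfb3 without Pfkfb4, shifted most. Pfkfb1 held 51.2% of its UMIs in WT [49.7 to 52.6], while Rbm20_het held 39.0%, Rbm20_homo 6.87% [5.99 to 7.83] and the corrected library 29.3%. Pfkfb2 took 91.0% in Rbm20_homo against 46% in WT. Pygm differed from these families in the corrected library: it held 40.9% of phosphorylase UMIs in WT, but 31.5%, 29.6% and 30.2% in the other 3 libraries, with the corrected library as low as Rbm20_homo. Mpc1 kept 74.9%, 79.2%, 75.4% and 74.7% of carrier UMIs.

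**Figure D3:**
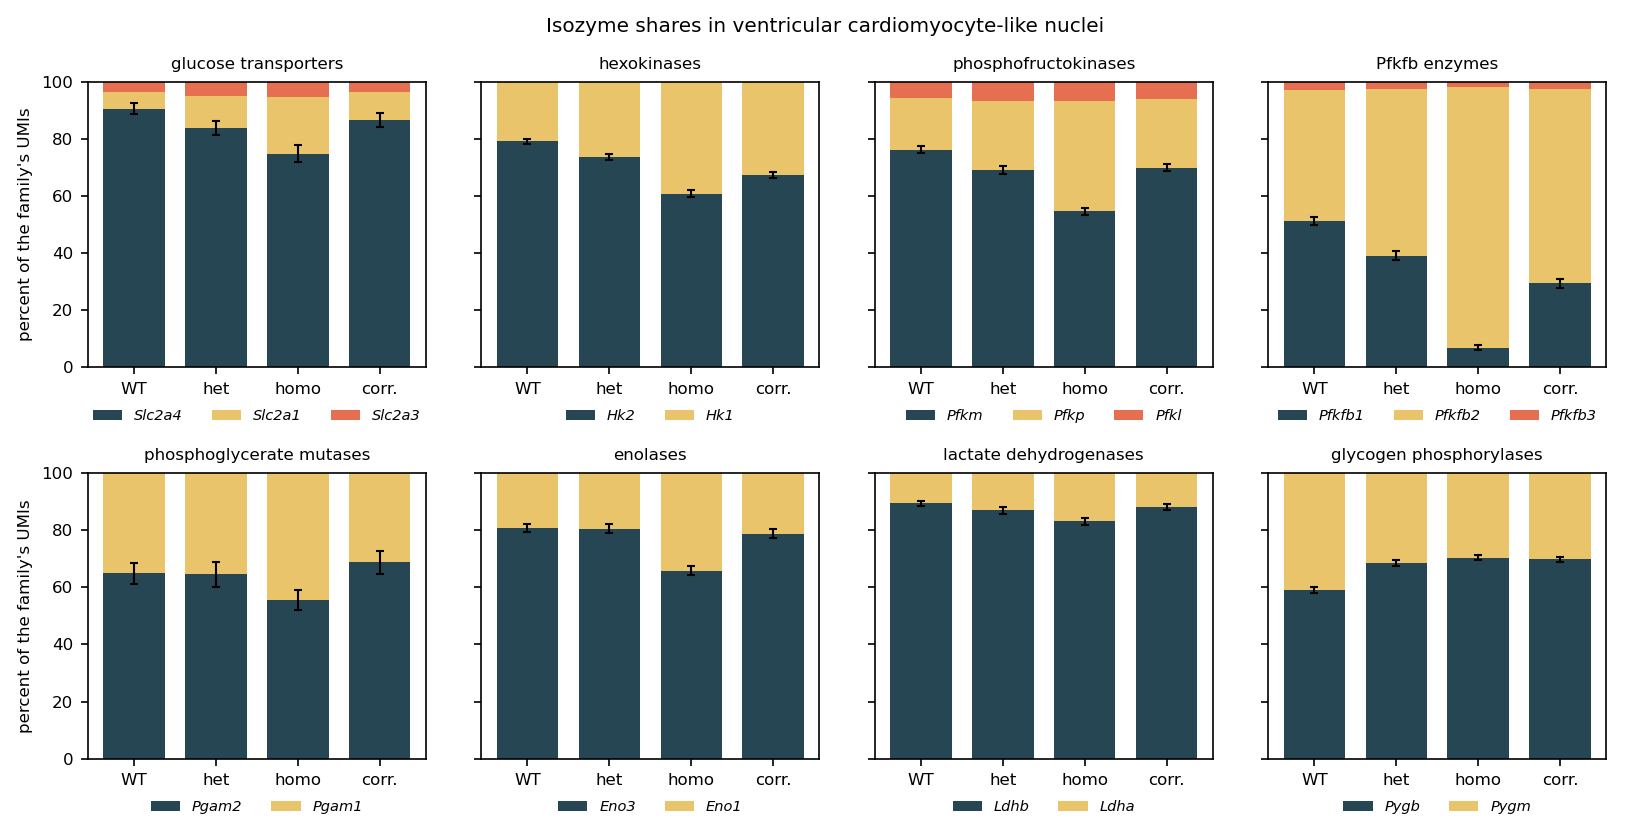
Share of each isozyme (percent of its family's UMIs) in cardiomyocyte-like nuclei of the 4 libraries. Stacked bars start at 0 and the error bar is the exact 95% binomial interval of the lowest segment. Hk2 drops from 79.0% in WT to 60.8% in Rbm20_homo and Pfkfb1 from 51.2% to 6.87%, with Pfkfb4 not counted.

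Shares were recomputed in the cardiomyocyte-like nuclei with at most 0.1% mitochondrial UMIs (725 in WT and 1623 in Rbm20_homo). Of 20 shares, those of the leading isozyme of 10 families in WT and Rbm20_homo, 10 moved out of their 95% interval, and 11 did so after thinning. WT stood above Rbm20_homo in both settings for Slc2a4, Hk2, Pfkm, Pfkfb1, Pgam2, Eno3 and Ldhb, as in all nuclei. In the low-mitochondrial nuclei Pfkm made up 73.7% of its family in WT and 53.9% in Rbm20_homo, Hk2 77.6% and 59.7%, and Eno3 78.0% and 63.0%. Slc2a4 moved most, from 74.8% in all nuclei of Rbm20_homo to 70.2% in those nuclei and 82.9% after thinning. In the low-mitochondrial nuclei the log2 ratios of Rbm20_homo to WT were -3.90 for Pfkfb1, 1.09 for Pfkp, -0.74 for Hk2 and 1.90 for Slc2a1.

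The corrected library was next compared with Rbm20_homo, a library that the comparison with WT also uses. Of 37 tested genes 2 were higher in the corrected library (Pfkfb1 and Ldhd) and 3 lower (Pfkp, Pgam1 and Eno1), beside 4.77% and 6.53% of all genes. With Malat1 kept in the total the 3 lower calls were lost and the 2 higher ones stayed, and after thinning Pfkfb1 alone kept its call. Without nuclei that carried other lineages' markers Pgk1 was called lower and Pfkp was not, and in nuclei with at most 0.1% mitochondrial UMIs Pgam1 (-1.03) and Eno1 (-0.77) lost their calls. Against WT, 0 were higher and 1 was lower (Pfkfb1), beside 2.22% and 2.51% of all genes. The corrected level of each of the 9 genes called between Rbm20_homo and WT lay between the levels of those libraries. The Rbm20_het level did so for each of them too. These 9 genes were picked for their distance between those libraries, so a level between is in part built in and tests nothing. Within the corrected library, the 271 nuclei of cluster 3 held Pfkfb1 at 26.0 CPM [17.3 to 37.6] and the 2770 of cluster 0 at 69.6 [65.0 to 74.5]. Hk2 was at 246 CPM [217 to 278] in the former and 337 [327 to 348] in the latter, and Pfkp at 122 [102 to 145] and 86.4 [81.2 to 91.8]. These genes took part in the clustering, so the values describe the clusters and test nothing.

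Other genes of the same pathway were taken from a list of 59, of which 43 were tested between Rbm20_homo and WT in cardiomyocyte-like nuclei. Of these 7 were higher and 5 lower, with a median log2 ratio of -0.10, where 9.05% and 7.9% of all tested genes were called in those directions. These shares are the background for the counts by step below as well. Of 8 tested genes of uptake 2 were higher and 3 lower. Tbc1d1 and Tbc1d4, the Rab GTPase-activating proteins that hold GLUT4 vesicles inside the cell, went opposite ways. Tbc1d1 was counted at 5.19 CPM in WT, while Rbm20_het held 11.1, Rbm20_homo 39.6 and the corrected library 12.9, and was called against WT in all 3. Tbc1d4 was at 982, 822, 440 and 714 CPM. Txnip, which restrains glucose uptake, was at 269, 221, 136 and 194 CPM, the transporter gene Slc2a12 at 21.0, 12.8, 3.93 and 12.5, and Irs1, an adaptor of the insulin receptor, at 107, 147, 178 and 182.
In upper glycolysis Pfkfb4, a further form of the enzyme that makes and breaks fructose 2,6-bisphosphate, was higher in Rbm20_homo than WT, at 6.67, 13.2, 14.5 and 10.9 CPM. Fbp2, muscle fructose 1,6-bisphosphatase, which opposes phosphofructokinase, was at 16.1, 13.6, 1.08 and 8.82 CPM, with a log2 ratio of -3.89 [-4.72 to -3.16] in Rbm20_homo against WT.
Of 17 tested genes of glycogen turnover 3 were higher and 1 lower. Phkg1, the muscle catalytic subunit of phosphorylase kinase, was at 154, 78.6, 14.6 and 99.5 CPM, while Phka1, the regulatory subunit described above, was higher in Rbm20_homo. Of the other subunit genes of this enzyme, Phkb (240.8, 235.9, 214 and 254 CPM), Phka2 (114, 102.5, 99.9 and 101 CPM) and Phkg2 (23.8, 18.6, 17.8 and 19.1 CPM) were tested and not called. They are named after their values were seen. On the side of synthesis Gyg (glycogenin, the primer of glycogen) was at 31.7, 33.7, 54.9 and 32.4 CPM, Ugp2 (which makes UDP-glucose) at 119, 125, 196 and 120, and Ppp1r3c (a glycogen-targeting subunit of protein phosphatase) at 7.04, 11, 27.8 and 16.8. None of the 4 tested genes of lower glycolysis, the 2 of lactate and the 7 of pyruvate entry was called.

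Outside cardiomyocytes the genes were measured in fibroblast-, endothelial-, endocardial-, lymphatic endothelial-, pericyte- and macrophage-like nuclei, classes with at least 100 nuclei in every library. Cardiomyocyte-like nuclei held the highest level of 25 of the 38 genes in all 4 libraries. With median-of-ratios factors between lineages the number was 29. The share of all genes that were highest there was not computed, so these counts have no background and give no result about the pathway. Cardiomyocyte markers were also counted in the other classes, where the 14 of them stood at a median of 6.48 to 25.3% of their cardiomyocyte level, and the highest single marker at 33.0 to 85.4%. By lineage and library, 9 to 23 of the 38 genes stood above the highest of these markers, relative to their cardiomyocyte level, and the rest did not. Hk2 in fibroblast-like nuclei was at 5.33 to 11.7% of its cardiomyocyte level and Pygm at 11 to 16.7%, both under the highest marker. Values at or below the markers are not read as expression in these lineages.
A few genes went the other way and stood above cardiomyocytes in all 4 libraries. Slc2a3 was 10.4 to 18.7 times its cardiomyocyte level in fibroblast-like nuclei, 12.7 to 24.0 times in pericyte-like and 21.1 to 34.3 times in macrophage-like nuclei. Pfkfb3 was 20.7 to 36.2 times higher in macrophage-like nuclei and 10.6 to 15.5 times in endocardial-like nuclei, and Pdk3 was 11.3 to 17.9 times higher in fibroblast-like and 7.31 to 15.1 times in endocardial-like nuclei. Aldoa was higher in endothelial-like nuclei, by 1.32 to 1.66 times.

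**Figure D4:**
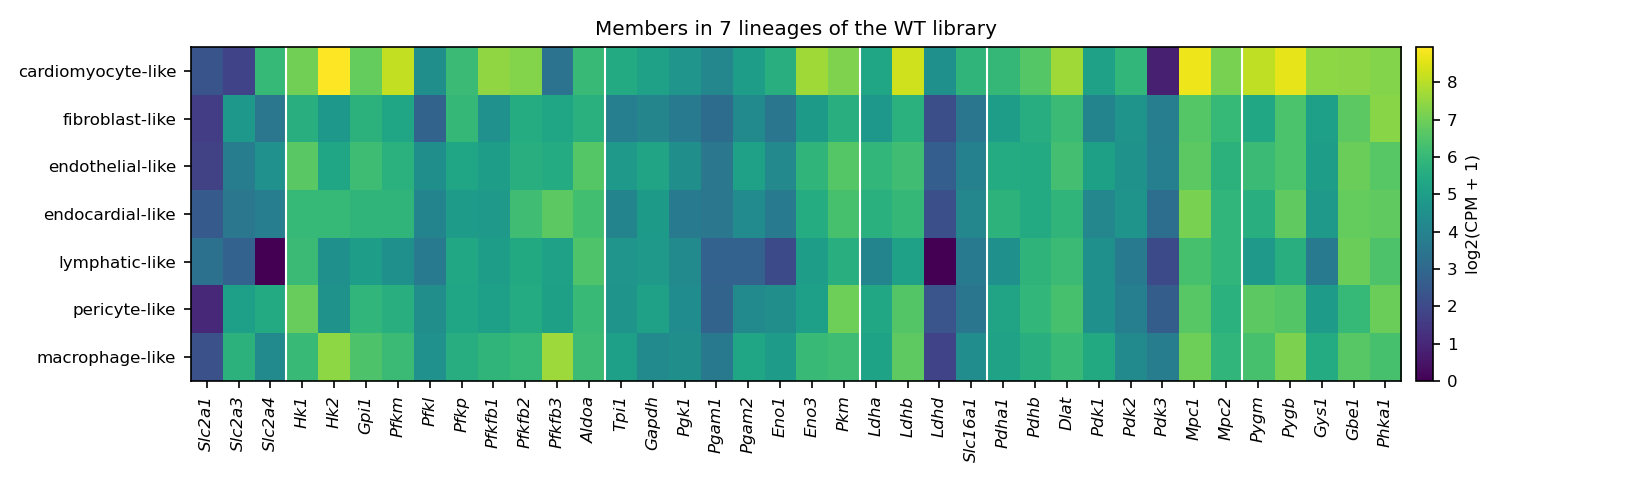
Level of the 38 genes in 7 lineages of the WT library, as log2(CPM + 1) by colour. Cardiomyocyte-like nuclei (top row) are brightest for Hk2, Pfkm, Ldhb and Mpc1, whereas Slc2a3, Pfkfb3 and Pdk3 are darkest there.

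Between Rbm20_homo and WT, 7 calls were made in the other lineages. In fibroblast-like nuclei Slc2a3 stood at 26.3 CPM for WT, 44.6 for Rbm20_het, 58.2 for Rbm20_homo and 32.6 for the corrected library. It was higher in Rbm20_homo than in WT, with a log2 ratio of 1.15 [0.85 to 1.45], and lower in the corrected library than in Rbm20_homo, at -0.84 [-1.06 to -0.61]. It was the 1 gene of 36 tested called higher in Rbm20_homo against WT, where 5.55% of genes were called higher and 3.66% lower. Against Rbm20_homo, the corrected library had 3.66% of genes higher and 4.6% lower. Fibroblast-like nuclei of Rbm20_homo lay mostly apart: cluster 1 held 1619, 1991, 270 and 3232 nuclei of the 4 libraries, cluster 4 held 45, 156, 2732 and 148, and cluster 12 held 249, 160, 29 and 256. In pericyte-like nuclei Slc2a3 was at 32.1, 78.8, 74.7 and 47.8 CPM, called in Rbm20_het against WT (log2 ratio 1.30 [0.71 to 1.92]) and not in Rbm20_homo (1.22 [0.57 to 1.89]). Gbe1, at 63.1 and 131 CPM, was the other of the 2 genes of 28 called in pericyte-like nuclei of Rbm20_het, where 0.425% of all genes were higher and 0.288% lower. In Rbm20_homo 0 of 24 were called there, against 2.04% higher and 1.74% lower.
The other 6 calls were lower values of genes that cardiomyocytes express more strongly. In fibroblast-like nuclei Pfkfb1 was at 21.9 CPM in WT and 8.46 in Rbm20_homo, and Pygm at 39.5 and 18.9. Pygm was also higher in the corrected library, at 40.6 CPM, than in Rbm20_homo. In endothelial-like nuclei Pfkfb1 was at 31.1 and 8.25 CPM, where 3.28% of genes were called higher and 1.85% lower. In WT both Pfkfb1 values, relative to cardiomyocytes, lay under the highest cardiomyocyte marker (35.2% in fibroblast-like and 85.4% in endothelial-like nuclei). In Rbm20_homo the endothelial value did too (72.8%), while the fibroblast value lay above it (33.0%). Pfkfb1 was also lower in cardiomyocyte-like nuclei of Rbm20_homo, and the part of their RNA in these calls was not tested. Endothelial-like nuclei also held Pgam1 at 20.9 CPM in Rbm20_homo and 8.17 in the corrected library, called lower, where 2.01% of genes were higher and 2.83% lower. Ldhb was at 60.9 and 24.8 CPM in endocardial-like nuclei (2.51% of genes higher, 2.05% lower). In macrophage-like nuclei Ldhb was at 106 and 42.8 CPM and Pfkm at 68.0 and 27.5 (2.43% higher, 2.5% lower). The median level of cardiomyocyte markers in macrophage-like nuclei was 25.3% of that in cardiomyocytes in WT and 13.9% in Rbm20_homo, and in endocardial-like nuclei 15.6% and 6.48%, so it moved with Ldhb and Pfkm, and its part in the result was not tested. In lymphatic endothelial-like nuclei 0 of 11 tested genes were called between Rbm20_homo and WT, where 1.31% of genes were higher and 0.52% lower.

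**Figure D5:**
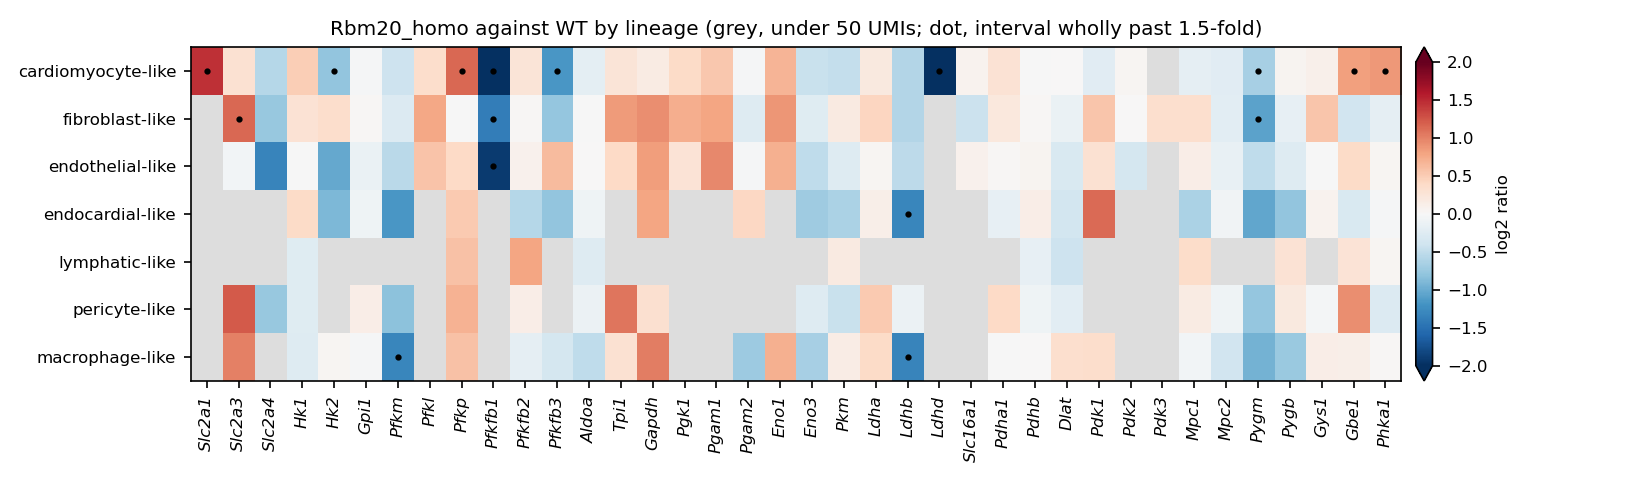
Log2 ratio of Rbm20_homo to WT (colour, limited to -2 and 2) for the 38 genes in 7 lineages. Grey cells had under 50 UMIs in the 2 libraries and dots mark an interval wholly past 1.5-fold. Slc2a1 is called in cardiomyocyte-like nuclei and Slc2a3 in fibroblast-like nuclei.

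Genes on the opposite strand overlap some of the genes called in cardiomyocyte-like nuclei, and whether strand or introns entered the authors' counts is not given in the sources used here. These neighbours are Gm12867 and Gm12868 at Slc2a1, Gm17034 at Hk2, Pitrm1 at Pfkp, Apex2 at Pfkfb1, Gm10851 at Pfkfb3 and Znrf1 at Ldhd. The annotation places none at Pygm, Gbe1 and Phka1. Some other genes above overlap a neighbour on the same strand, among them Phkg1 (Chchd2), Pfkm (Gm26513), Phkb (Hm629797) and Slc16a1 (Gm43581 and Gm43585). On the opposite strand Phkg1 also overlaps Sumf2 and Zbed5, and Pfkm overlaps Senp1. The part of these neighbours in the counts was not tested. Aldoa has a second row in the matrices with 3 to 12 UMIs per library in cardiomyocyte-like nuclei, which was not added.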

How the data were processed

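Single-nucleus RNA was measured in 4 libraries, 1 per genotype, each of 3 pooled hearts. Per the file headers, the deposited matrices hold raw UMI counts of every gene in each barcode. Cell Ranger 6.1.1, Seurat 4 and mm10 (GRCm38) are named in the submitters' processing notes, but Cell Ranger 4.0.0 in the matrix headers.

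Nuclei were kept from 300 detected genes and up to 5% of mitochondrial UMIs, and the highest Scrublet scores (scanpy 1.11.5) were removed at 0.8% per 1000 barcodes, which left 8681 (WT), 8871 (Rbm20_het), 10443 (Rbm20_homo) and 13144 (corrected) nuclei with medians of 2362 to 3146 UMIs. They were clustered jointly into 27 clusters (2000 variable genes, 30 components, 20 neighbours, Leiden resolution 0.8 with leidenalg 0.10.2) and named from marker lists, with thresholds set after the data were seen. UMIs were summed by lineage and library. CPM left mitochondrial genes and Malat1 out of the total. Levels have exact Poisson, ratios exact conditional binomial and shares exact Clopper-Pearson 95% intervals (scipy 1.17.1), which cover counting error only. All 38 genes are named. Outside cardiomyocytes a gene was named when called in Rbm20_homo against WT or in the corrected library against Rbm20_homo, or, for up to 6 per lineage, when highest relative to cardiomyocytes in all 4 libraries. Other pathway genes were named when called between Rbm20_homo and WT, up to 12 by size, and 1 of them is not reported here. Positions are from GENCODE vM21. Alternatives changed scaling (TMM from edgeR 4.0.16 among them), filters, fold, lineage assignment and depth. The call rule was run on simulated data that held counting error only. Differences between hearts or pools were not simulated, so that run cannot show how the rule behaves with them. The 38 genes, the lists and the scaling were chosen with earlier results of these data known.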

Additional observations from a re-analysis of the deposited data

Results flagged for a closer look

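In Rbm20_homo against WT, 7 of the 38 genes had log2 ratios of opposite sign in different lineages, each beyond counting error. The share of all genes that did so was not computed, so this count has no background. Some intervals only just excluded equal levels, among them Hk2 in fibroblast-like nuclei [0.03 to 0.67] and Pfkfb2 in endocardial-like nuclei [-1.10 to -0.06]. These differences between lineages were not tested, since each genotype has 1 library. Pfkfb3 was higher in endothelial-like nuclei (69.4 CPM against 44.8 in WT, log2 ratio 0.63 [0.25 to 1.03]) and lower in cardiomyocyte-like nuclei (-1.16), a gap of 1.80, and also lower in fibroblast-, endocardial- and macrophage-like nuclei. Hk2 had a gap of 1.37 between fibroblast-like nuclei (33.5 CPM against 26.3, log2 ratio 0.35) and endothelial-like nuclei (18.9 against 38.4, -1.02), both with levels under 12% of those in cardiomyocytes of the same library. Pdk1 had a gap of 1.36, higher in endocardial-like nuclei (36.8 CPM against 16.7, log2 ratio 1.14) and lower in cardiomyocyte-like ones (28.9 against 33.8, -0.22). Gbe1 had a gap of 1.31, higher in pericyte-like nuclei (120 CPM against 63.1, log2 ratio 0.93) and lower in fibroblast-like nuclei (78.7 against 103, -0.38). Relative to cardiomyocytes, pericyte Gbe1 lay under the highest cardiomyocyte marker in WT (47.8%) and in Rbm20_homo (43.9%). Gbe1 was higher in cardiomyocyte-like nuclei of Rbm20_homo too, and the part of their RNA was not tested. Phka1 had a gap of 1.05, higher in cardiomyocyte-like nuclei (log2 ratio 0.86) and lower in fibroblast-like nuclei (143 CPM against 162, -0.19). Mpc1 had a gap of 0.968, higher in fibroblast-like nuclei (122 CPM against 96.5, log2 ratio 0.34) and lower in endocardial-like nuclei (92.0 against 142, -0.63). Relative to cardiomyocytes, fibroblast Mpc1 lay under the highest cardiomyocyte marker in WT (35.2%) and just above it in Rbm20_homo (33.0%). Beside the cardiomyocyte level of the same library, endocardial Mpc1 stood at 34.1% in WT and 25% in Rbm20_homo. Pfkfb2 had the smallest gap, 0.829, between cardiomyocyte-like nuclei (log2 ratio 0.25) and endocardial-like nuclei (-0.58). Endocardial Pfkfb2 stood at 46.6% of its cardiomyocyte level in WT and 26.3% in Rbm20_homo. In these endocardial-like nuclei the median cardiomyocyte marker stood at 15.6% in WT and 6.48% in Rbm20_homo and the highest at 47.6% and 41.3%, so both genes lay under the highest marker and moved with the markers, whose part was not tested.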

How the results depend on the processing

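With the threshold at 2-fold, 2 genes were higher and 2 lower in Rbm20_homo against WT, beside 4.63% and 3.45% of all genes. In the corrected library against Rbm20_homo 0 were lower, beside 2.8% of all genes. With any difference beyond counting error (1-fold), 14 were higher and 14 lower in Rbm20_homo against WT (29.6% and 31.2% of all genes). Rbm20_het against WT had 9 and 20 (16.8% and 24.7% of all genes). The corrected library had 12 and 17 against Rbm20_homo (24.2% and 30.4%), and 7 and 20 against WT (17.8% and 26.4%). With Malat1 kept in the total, the median log2 ratio over the tested genes was -0.13 in Rbm20_homo against WT. With that total 0 genes were lower in the corrected library than in Rbm20_homo, beside 4.76% of all genes. After thinning to 1000 UMIs per nucleus, which leaves fewer UMIs, 3 were lower in Rbm20_homo than in WT, beside 5.59% of all genes. In the corrected library against Rbm20_homo 1 was then higher and 0 lower, beside 2.94% and 4.26% of all genes. In nuclei with at most 0.1% mitochondrial UMIs, an alternative chosen after seeing the data, 2 were lower in Rbm20_het than in WT (1.3% of all genes). In the corrected library 1 was lower than in Rbm20_homo (5.08% of all genes). Calls in the other lineages numbered 2 with at least 200 UMIs, 1 past 2-fold and 59 past 1-fold, against 7, all chosen after seeing the data. The share of all genes called was not computed for these alternatives, so the counts have no background. The other counts and medians stayed within 1.5 times or within the interval of the median. Of the ratios of single genes under alternatives, 383 kept their call or stayed within their interval, 19 lost a call with the same direction, 38 moved out of their interval and none of the called ones changed sign. Slc2a1 lost its call after thinning (log2 ratio 0.65). The cause of these changes was not tested except where fewer UMIs or another threshold set them. The order of isozymes was the same on all 3 length scales in 8 of 10 families, and Pfkfb1 with Pfkfb2 and Pygm with Pygb changed places. No paired analysis was possible because each genotype has 1 library. Precision is limited most for Pdk3, Slc2a3 and Pfkfb3, and the lymphatic class.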
